A study of Mus musculus with 12 samples.

Results

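The Ly6 family surface antigen genes were examined in megakaryocytes (MKs), the platelet-forming cells, sorted from the bone marrow (BM) and spleen of mice with and without sepsis. The 6 genes Ly6a, Ly6c1, Ly6c2, Ly6d, Ly6e and Ly6g were selected by symbol from the 55536 genes of the count table. The set was chosen on the level of Ly6a in splenic MKs after sepsis, so that Ly6a in those libraries, and every comparison of septic with saline spleen, is given as a description with no test. All 6 genes passed the filter on low counts and were among the 20263 genes tested.

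Every library came from C57BL/6 mice that carried a Pf4-Cre transgene and a tdTomato reporter, so that cells with a history of Pf4 promoter activity were red. The mice were 8 to 12 weeks old and of both sexes, per the study's methods. The 4 groups were BM MKs after saline, BM MKs after sepsis, splenic MKs after saline and splenic MKs after sepsis, taken on day 5, with sepsis induced by injection of cecal slurry. Each group had 3 independent replicates of 300 pooled cells that were positive for CD45, tdTomato, CD41 and CD42b and negative for the lineage stain, which held NK1.1, CD3, CD11b, F4/80 and B220. CD138 was also named as negative in the study. Ly-6A, Ly-6C and Ly-6G were not part of that stain, so the sort did not select on the proteins of these genes.

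Ly6 proteins are small cell surface proteins with a three-finger fold that is held by disulfide bonds, and most are tied to the membrane by a glycosylphosphatidylinositol (GPI) lipid anchor. Several are textbook markers of blood cells. Ly6a encodes Sca-1, which marks blood stem cells and many lymphocytes and is induced by interferons. Ly6c1 and Ly6c2 encode the forms of Ly-6C, the marker of inflammatory monocytes, and Ly6g encodes Ly-6G, the marker of neutrophils. Ly6d is a marker of B cell commitment, and Ly6e is an interferon-induced gene of wide expression.

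The 6 genes lie in 1 cluster on mouse chromosome 15 (GRCm38, GENCODE M21), all protein coding, over 397.1 kb. In map order they are Ly6d (ENSMUSG00000034634, chr15:74762056-74763620, minus strand), Ly6e (ENSMUSG00000022587, chr15:74955051-74959905, plus strand) and Ly6a (ENSMUSG00000075602, chr15:74994877-74998031, minus strand). They are followed by Ly6c1 (ENSMUSG00000079018, chr15:75044018-75048830, minus strand), Ly6c2 (ENSMUSG00000022584, chr15:75108158-75111970, minus strand) and Ly6g (ENSMUSG00000022582, chr15:75155240-75159126, plus strand). No exon of a coding transcript of the 6 genes overlapped an exon of another gene on either strand.

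The coding sequences show what these genes share and how far they can be told apart by reads. The first 300 bases of the coding sequence of Ly6a, Ly6d and Ly6e are shown because these 3 genes carry the tissue difference, with the in-frame cysteine codons (TGT or TGC) in capitals.
Ly6a: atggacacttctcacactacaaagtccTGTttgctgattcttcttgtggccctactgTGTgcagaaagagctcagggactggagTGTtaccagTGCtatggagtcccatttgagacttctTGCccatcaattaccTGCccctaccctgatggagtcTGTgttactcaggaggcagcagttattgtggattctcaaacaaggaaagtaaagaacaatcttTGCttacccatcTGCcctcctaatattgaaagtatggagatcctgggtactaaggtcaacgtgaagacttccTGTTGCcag
Ly6d: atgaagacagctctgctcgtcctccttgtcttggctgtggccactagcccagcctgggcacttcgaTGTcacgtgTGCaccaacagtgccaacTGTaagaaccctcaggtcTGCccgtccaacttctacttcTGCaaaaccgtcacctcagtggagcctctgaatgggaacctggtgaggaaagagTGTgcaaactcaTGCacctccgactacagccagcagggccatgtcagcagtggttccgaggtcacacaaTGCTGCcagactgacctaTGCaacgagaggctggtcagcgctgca
Ly6e: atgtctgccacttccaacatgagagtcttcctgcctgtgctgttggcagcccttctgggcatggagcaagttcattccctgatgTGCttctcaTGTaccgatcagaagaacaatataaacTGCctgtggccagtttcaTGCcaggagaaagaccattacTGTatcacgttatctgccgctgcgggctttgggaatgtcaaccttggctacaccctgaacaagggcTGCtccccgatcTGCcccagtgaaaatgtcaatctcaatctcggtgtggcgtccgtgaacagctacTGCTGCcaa
The whole coding sequence held 12 cysteine codons in Ly6a, 11 in Ly6d and 10 in Ly6e, of 134, 127 and 136 codons. Identity was computed over the whole coding sequences, with those codons included, and the positions of the codons were not compared between genes. Where both sequences had a base in a global alignment, those of Ly6a and Ly6d were identical at 215 of 329 positions (65.35%), those of Ly6a and Ly6e at 225 of 380 (59.21%), and those of Ly6d and Ly6e at 219 of 359 (61.0%). With gaps counted as differences the shares were 47.36%, 52.33% and 50.93%.

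Ly6c1 and Ly6c2 were the closest pair. Their coding sequences of 393 bases differed at 9 positions (97.71% identity) and shared an unbroken run of 188 bases. The first 180 bases of each are shown because they hold 6 of the 9 differences, which are in capitals.
Ly6c1: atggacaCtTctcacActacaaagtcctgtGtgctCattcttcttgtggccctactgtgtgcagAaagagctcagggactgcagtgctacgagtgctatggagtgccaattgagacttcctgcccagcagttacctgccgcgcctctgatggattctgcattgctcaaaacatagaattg
Ly6c2: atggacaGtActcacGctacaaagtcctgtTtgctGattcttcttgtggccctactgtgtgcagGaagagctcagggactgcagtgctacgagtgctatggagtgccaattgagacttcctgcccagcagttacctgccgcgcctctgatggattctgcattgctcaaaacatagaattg
Of the stretches of 50 bases in the transcript of Ly6c1, 36.7% also occurred in a transcript of another gene, and 33.0% of those of Ly6c2 did. The share was 8.05% for Ly6a, which shared stretches with Ly6c1, Ly6c2, Ly6i and I830127L07Rik, and 0.697% for Ly6g. Ly6d and Ly6e shared 0%. The values of Ly6c1 and Ly6c2 are therefore uncertain as a split between a near-identical pair, while no such sharing was found for Ly6d and Ly6e. The shares cover only transcript 201 of each gene. For Ly6g this transcript held 287 such stretches, where the exons of its coding transcripts had 942 bases. Its coding sequence did not start with ATG.

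The libraries held between 7756762 and 27386184 counts, and 3 counts corresponded to between 0.105 and 0.405 CPM, the counts per 1000000 counts of a library after scaling with TMM factors. The MK label was checked against 12 MK genes. The platelet chemokine gene Pf4 averaged 18663 CPM in BM and 1175 CPM in spleen with saline (adjusted p = 0.00197, edgeR), and the summed MK list ranged from 11768 to 47649 CPM in BM libraries and from 1220 to 3528 CPM in splenic libraries. The fitted difference was negative for all 12 MK genes in both treatments, and 4 of them passed the test after saline and 3 after sepsis. The summed list of 12 B cell genes ranged from 88.6 to 607 CPM in BM and from 5605 to 33179 CPM in spleen, and that of 9 plasma cell genes from 1582 to 5152 CPM and from 8058 to 81225 CPM. Replicate 3 of splenic MKs after sepsis stood apart from its group with the lowest B cell sum (5605 against 25904 and 33179 CPM) and the lowest share of counts on immunoglobulin and T cell receptor segment genes (13.03% against 23.5% and 27.6%). Log2 fold changes of the members that involve the septic spleen are also given without it, apart from Ly6c1 and Ly6g. In pooled cells, more cells with a transcript and more of it per cell cannot be told apart.

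After saline, 4 of the 6 genes were higher in splenic than in BM MKs at an adjusted p under 0.05, against 0.725% of all genes tested (edgeR quasi-likelihood test, 3 libraries per group). These were Ly6a, Ly6d, Ly6e and Ly6c2. The splenic libraries lay wholly above the BM libraries for 5 of the 6 genes, which held for 7% of all genes. The median log2 fold change over all genes tested was 0.28.

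Ly6a, the Sca-1 gene, was detected in every library. After saline the BM libraries were at 58.6, 85.4 and 19.5 CPM, and the splenic libraries at 966, 584 and 1581 CPM. All splenic libraries were above all BM libraries. The means were 54.5 ± 33.1 and 1044 ± 503 CPM (SD, n = 3), a ratio of 19.2. The log2 fold change was 4.26 (SE 0.69, adjusted p = 0.0031, edgeR), and it passed the test in all 22 alternatives tried.

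Ly6d, the B-lineage antigen gene, had the largest tissue difference of the 4 called genes after saline. With saline it stood at 136, 75.8 and 56.6 CPM in the BM and at 2906, 2382 and 5041 CPM in the spleen. The groups did not overlap, and the log2 fold change was 5.26 (SE 0.84, adjusted p = 0.00251, edgeR). The call was lost with limma-voom (5.37, adjusted p = 0.0845). With sepsis it stood at 106, 28.6 and 43.1 CPM in the BM and at 6256, 5509 and 406 CPM in the spleen. Replicate 3 of the septic spleen was low within its group and still above every BM library. The log2 fold change after sepsis was 6.10 (SE 0.87, adjusted p = 0.000607, edgeR), and without that library it was 6.61 (adjusted p = 3.74e-08).

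Ly6e, the interferon-induced member, had the smallest spread between libraries. The saline libraries held 630, 863 and 673 CPM in the BM and 3368, 1819 and 2662 CPM in the spleen. The septic libraries held 555, 408 and 833 CPM in the BM and 3023, 2914 and 1810 CPM in the spleen. The tissues did not overlap under either treatment. The log2 fold change with saline was 1.86 (SE 0.45, adjusted p = 0.0463, edgeR) and with sepsis 2.11 (SE 0.45, adjusted p = 0.0169). Without replicate 3 of the septic spleen the latter was 2.29 (adjusted p = 0.000447). The saline call was lost without any 1 of the BM saline libraries, replicate 1 or 3 of the saline spleen or replicate 2 of the septic spleen (adjusted p from 0.0722 to 0.233), and with library size alone (0.0554). The sepsis call was lost without replicate 1 or 2 of either septic group (0.0516 to 0.0946) and in the fit of the 6 septic libraries (0.109). The difference averaged over treatments (1.98, SE 0.32, adjusted p = 0.00064) was called in all 21 alternatives, and was 2.06 without replicate 3 of the septic spleen.

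Ly6c2, the Ly-6C gene, was called between tissues after saline and not after sepsis. With saline it reached 42.4, 118 and 154 CPM in the BM and 1046, 283 and 780 CPM in the spleen. The log2 fold change was 2.75 (SE 0.65, adjusted p = 0.0406, edgeR). Without replicate 1 of either saline group, or without replicate 2 of BM MKs, the call was lost (adjusted p = 0.181, 0.128 and 0.0856). It was also lost in the fit of the 6 saline libraries (2.75, adjusted p = 0.0656), with limma-voom (0.0606) and with library size alone (0.0537). With sepsis it reached 277, 271 and 830 CPM in the BM and 350, 341 and 195 CPM in the spleen. These groups overlapped, and the log2 fold change was -0.64 (SE 0.61, adjusted p = 0.718, edgeR), or -0.43 without replicate 3 of the septic spleen. Whether the tissue difference itself changed with sepsis was not tested, because it holds the spleen comparison on which the set was chosen.

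**Figure D1:**
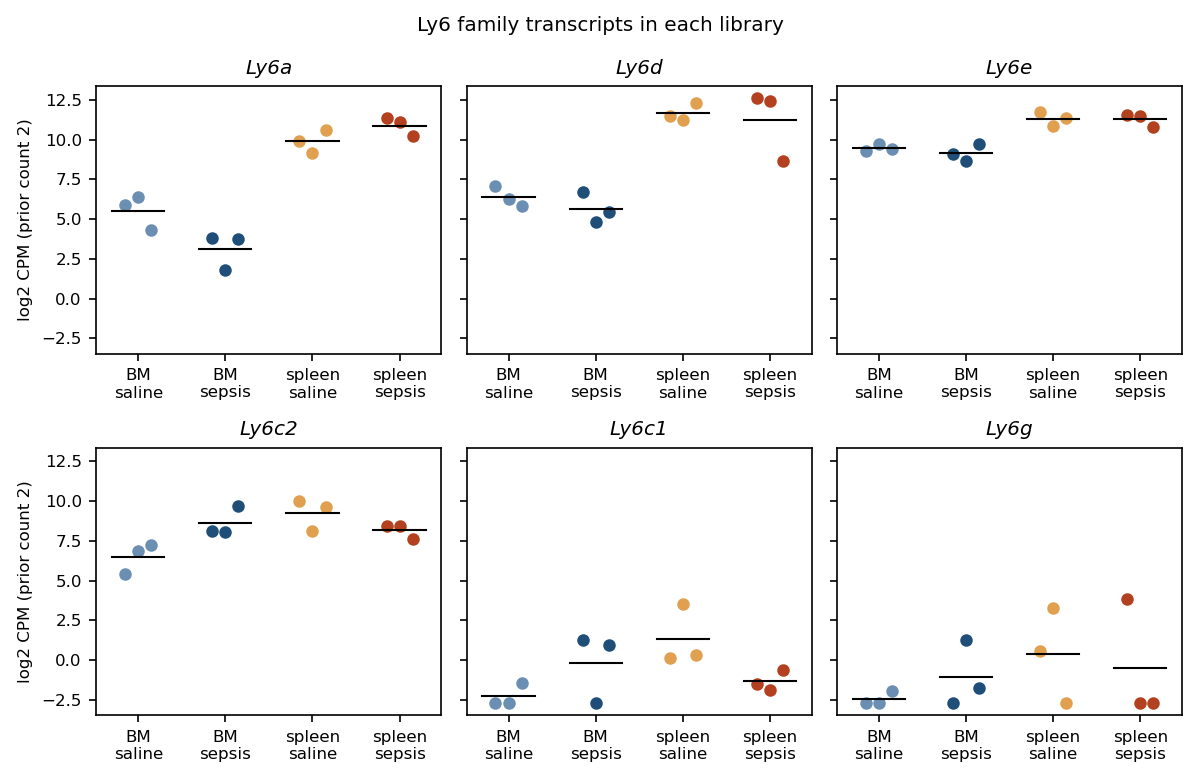
Level of each of the 6 genes in each library, as log2 CPM with a prior count of 2 (vertical axis), by tissue and treatment (horizontal axis). Each point is 1 library and each line the mean of 3. Ly6a, Ly6d and Ly6e lay higher in every splenic library than in any BM library, while Ly6c1 and Ly6g lay near the limit of detection in most libraries.

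Ly6c1 and Ly6g were nearly absent. The counts of Ly6c1 were 0, 0 and 2 in BM MKs after saline, 34, 0 and 50 in BM MKs after sepsis, 7, 138 and 10 in splenic MKs after saline and 4, 1 and 5 in splenic MKs after sepsis. Over the 12 libraries Ly6c1 had 251 counts and its close relative Ly6c2 had 64528. The counts of Ly6g were 0, 0 and 1 in BM MKs after saline, 0, 26 and 4 in BM MKs after sepsis, 10, 117 and 0 in splenic MKs after saline and 272, 0 and 0 in splenic MKs after sepsis. Ly6g was at 0 in 6 of the 12 libraries, and 1 library held 272 of its 430 counts. A count of 0 leaves room for up to 3, by counting error alone. Neither gene passed the test between tissues after saline (adjusted p = 0.421 for Ly6c1 and 0.444 for Ly6g, edgeR) or after sepsis (0.783 and 0.785).

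After sepsis, 2 of the 5 genes that could be tested, Ly6d and Ly6e, were higher in splenic MKs, against 1.18% of all genes tested. The splenic libraries lay wholly above the BM libraries for 3 of the 6 genes (Ly6a, Ly6d and Ly6e), which held for 7.02% of all genes, and Ly6a was used in the choice (fitted log2 fold change 7.58, and 7.83 without replicate 3 of the septic spleen). Averaged over treatments, Ly6d (log2 fold change 5.68, SE 0.60, adjusted p = 8.26e-06, edgeR, and 5.92 without replicate 3 of the septic spleen) and Ly6e were called higher in spleen, against 2.68% of all genes. Ly6c2 was not (1.06, SE 0.44, adjusted p = 0.188, and 1.14 without that library).

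In BM, sepsis gave 0 calls among the 6 genes and 0% of all genes tested with edgeR. At an unadjusted p under 0.05 there were 2 of the 6 genes and 717 of all genes, and DESeq2 called 206 genes and limma-voom 0. The 2 genes were Ly6a and Ly6c2, with differences of opposite sign. Ly6a measured 14.2, 3.40 and 13.5 CPM after sepsis, below all 3 saline libraries, and the log2 fold change was -2.39 (SE of 0.64, adjusted p = 1, edgeR). DESeq2 called it (-2.47, adjusted p = 0.0145), as did edgeR with no expression filter (-2.35, adjusted p = 0.00152). Ly6c2 lay above all 3 saline libraries after sepsis, and the log2 fold change was 2.13 (SE of 0.64, adjusted p = 1, edgeR). Of all genes, 4.79% had septic BM libraries wholly above and 4.16% wholly below the saline ones, so that a gene apart in either direction was not rare. Ly6d (log2 fold change -0.59, SE 0.70) and Ly6e (-0.27, SE 0.44) overlapped between treatments in BM.

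In the spleen, the comparison on which the set was chosen, none of the 6 genes lay wholly higher after sepsis, against 4.95% of all genes. Ly6a measured 2588, 2227 and 1179 CPM after sepsis beside 966, 584 and 1581 CPM after saline. The lowest septic library was below the highest saline library. The means were 1998 ± 732 and 1044 ± 503 CPM (SD, n = 3), a ratio of 1.91, and the fitted log2 fold change was 0.94 (SE 0.61). Without the septic library that stood apart it was 1.23, and over leaving out each library in turn it ran from 0.65 (without replicate 2 of the saline spleen) to 1.39 (without replicate 3 of it). Ly6d had a fitted log2 fold change of 0.24 (SE 0.70), which was 0.80 without the septic library that stood apart and -0.16 without replicate 1 of the septic spleen, the lowest of the values with 1 library left out. Ly6e had -0.02 (SE 0.43), which was 0.21 without the library that stood apart and ran from -0.22 to 0.28 with each library left out. The sign was therefore not fixed for either gene. Ly6c2 had a fitted log2 fold change of -1.25 (SE 0.62), from -1.62 to -0.79 with each library left out and -0.999 without the one that stood apart, with an overlap between 350 CPM after sepsis and 283 CPM after saline. Ly6c1 lay wholly lower after sepsis, at 1 to 5 counts against 7 to 138, as 4.51% of all genes did.

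**Figure D2:**
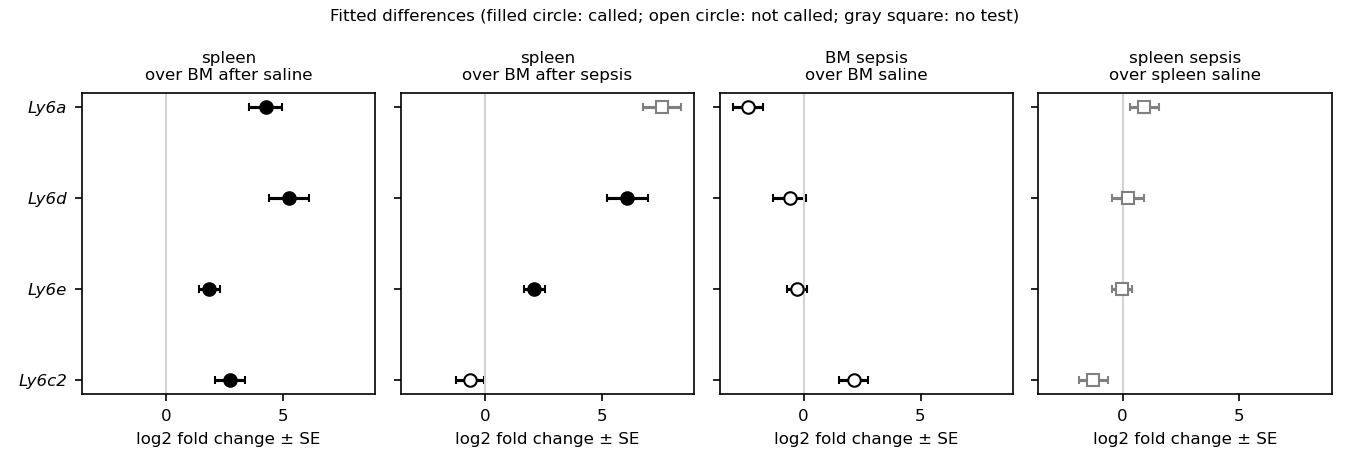
Fitted log2 fold change with its SE (horizontal axis) for Ly6a, Ly6d, Ly6e and Ly6c2 in 4 comparisons, each on the same scale. Filled circles passed the edgeR test at an adjusted p under 0.05, open circles did not, and gray squares were not tested. The differences between tissues reach 7.58 (Ly6a after sepsis), and those between treatments in the spleen stay between -1.25 and 0.94.

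Levels of different genes were compared per kilobase of exon. The length was that of all exons of the coding transcripts of a gene, such as 1205 bases for Ly6a and 2510 for Ly6e. The order of genes that overlap can depend on this choice of length. In BM MKs after saline, Ly6e led at 288 CPM per kilobase (251 to 344), above every library of Ly6c2 (mean 121) and Ly6d (mean 120), which overlapped each other. Ly6a followed at 45.2 CPM per kilobase (16.2 to 70.9) and overlapped Ly6c2. In BM MKs after sepsis, Ly6c2 was at 529 CPM per kilobase (312 to 957), and overlapped Ly6e at 238 (163 to 332). Ly6d at 79.8 (38.4 to 143) and Ly6a at 8.62 (2.82 to 11.8) were each wholly below the gene before them.

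In splenic MKs after saline, the order was led by Ly6d at 4628 CPM per kilobase (3202 to 6775), wholly above Ly6e (mean 1042), Ly6a (mean 866) and Ly6c2 (mean 810), which overlapped each other. In splenic MKs after sepsis, Ly6d averaged 5453 CPM per kilobase but ran from 545 to 8408 and so overlapped Ly6a (mean 1658) and Ly6e (mean 1029). Ly6c2 at 340 (225 to 404) was wholly below those 3 genes. Ly6c1 and Ly6g had means under 5 CPM per kilobase in all 4 groups.

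**Figure D3:**
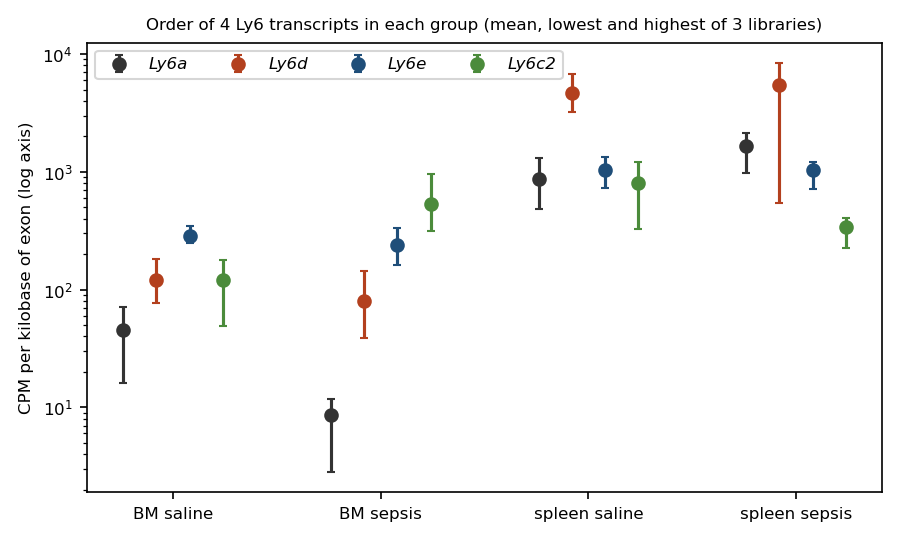
CPM per kilobase of exon (vertical log axis) of 4 genes in the 4 groups, with the mean as a point and the lowest and highest of 3 libraries as bars. Ly6a was the lowest of the 4 in BM MKs under both treatments, and Ly6d had the highest mean in splenic MKs under both.

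Levels of these genes were set beside markers of other cells. The level of Ly6a was between 5.23% and 14.1% of the summed B cell list in BM MKs after saline and between 3.84% and 8.18% in BM MKs after sepsis. It was between 5.43% and 7.35% in splenic MKs after saline and between 7.80% and 21.03% in splenic MKs after sepsis. Over all libraries Ly6a was between 3.84% and 21.03% of the B cell sum, and the sum itself ran from 88.6 to 33179 CPM. The largest gene of that sum in spleen was Cd74, with means of 11210 CPM after saline and 13855 CPM after sepsis. The B cell sum was also lower in BM MKs after sepsis (88.6 to 257 CPM) than after saline (372 to 607 CPM), as Ly6a was. Ly6d was between 7.24% and 41.4% of the same sum over the 12 libraries. Ly6e was at 118% to 503% of the sum in BM and 9.11% to 32.3% in spleen. The part of B cell transcripts in the levels of Ly6a and Ly6d was not tested.

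For Ly6c2 and Ly6g, the marker lists to set beside them are those of neutrophils and of monocytes and macrophages. The summed list of 12 neutrophil genes was 104 to 279 CPM in BM MKs after saline and 2250 to 16727 CPM after sepsis. In the saline spleen the sums of replicates 1, 2 and 3 were 21259, 533 and 341 CPM, beside Ly6c2 at 1046, 283 and 780 CPM and Ly6g at 10, 117 and 0 counts. In the septic spleen they were 10410, 71.4 and 189 CPM, beside Ly6c2 at 350, 341 and 195 CPM and Ly6g at 272, 0 and 0 counts. In BM MKs after sepsis they were 2250, 11182 and 16727 CPM, beside Ly6c2 at 277, 271 and 830 CPM and Ly6g at 0, 26 and 4 counts. Within a group, the library with the highest sum had the highest Ly6c2 in these 3 groups and the lowest in BM MKs after saline, and neither gene followed the order of the sums throughout. The summed list of 12 monocyte and macrophage genes was 398 to 1020 CPM in BM MKs after saline and 646 to 1304 CPM after sepsis, with 1145 to 2045 CPM in the saline spleen and 241 to 702 CPM in the septic spleen. Between treatments in BM, edgeR called 0 genes of both lists. At an unadjusted p under 0.05 there were 8 of the 12 neutrophil genes, with a median log2 fold change of 5.10 over the list, and 1 of the 11 monocyte and macrophage genes, with a median of 1.11. The spleen was not tested between treatments. The defining neutrophil gene S100a8 was present at 33.5 CPM on average in BM MKs after saline and at 4142 CPM after sepsis. The part of these cells in the levels of Ly6c2 and Ly6g was not tested.

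**Figure D4:**
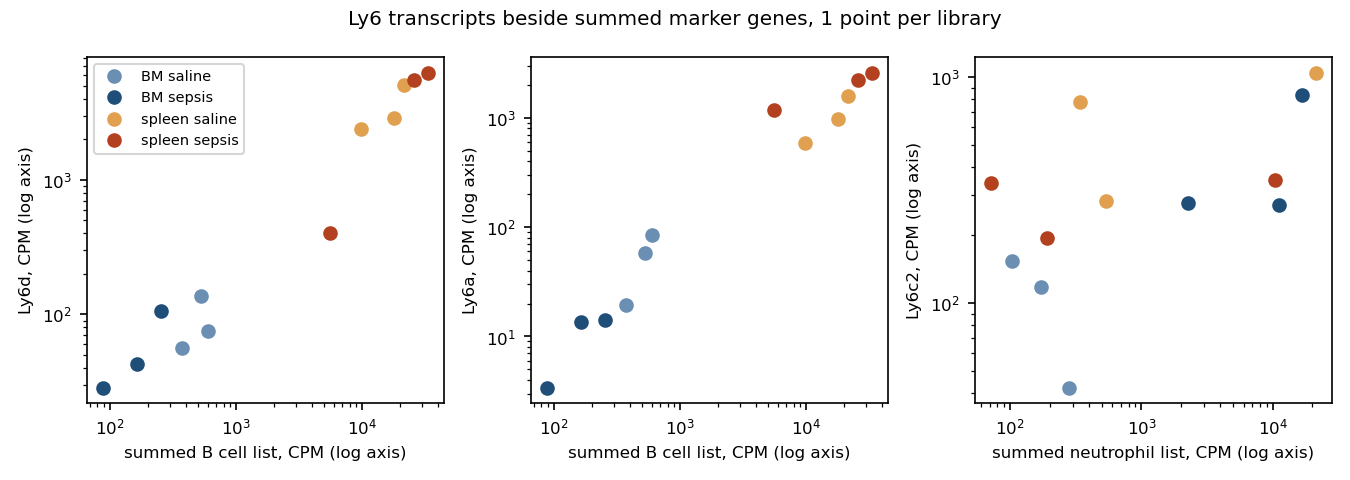
Level of Ly6d and of Ly6a against the summed B cell list, and of Ly6c2 against the summed neutrophil list, in CPM on log axes, 1 point per library coloured by group. BM libraries have B cell sums of 88.6 to 607 CPM and splenic libraries 5605 to 33179 CPM, and over the splenic libraries Ly6c2 does not follow the order of the neutrophil sums, with 1046 CPM at a sum of 21259, 780 CPM at 341, and 350 and 341 CPM at 10410 and 71.4.

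Of the marker lists, those of B cells and plasma cells gave the most calls between tissues. Of 12 T cell genes, 0 were called between tissues after saline and 1 after sepsis, higher in spleen. Of 7 tested NK cell genes 0 and 1 (lower in spleen) were called, of 6 plasmacytoid dendritic cell genes 1 and 1 (higher in spleen), of 10 endothelial genes 0 and 0, and of 9 stem and progenitor genes 0 and 1 (lower in spleen). The plasmacytoid dendritic cell call was under both treatments Spib, a lymphoid transcription factor gene (adjusted p = 0.0163 after saline and 0.00436 after sepsis, edgeR). Of the B cell list 10 and 11 of 12 genes were called higher in spleen, and of the plasma cell list 5 and 4 of 9. Of the 12 neutrophil genes 0 and 1 (lower in spleen) were called, and of the 11 tested monocyte and macrophage genes 0 and 0. Where edgeR called 0 after saline, an unadjusted p under 0.05 was reached by 7 T cell, 1 NK cell, 8 neutrophil, 1 monocyte and macrophage, 2 endothelial and 3 stem and progenitor genes, and after sepsis by 3 monocyte and macrophage and 3 endothelial genes. Of all 20263 genes tested, 2534 reached it after saline and 2618 after sepsis, and edgeR called 253 and 361 genes in either direction. Ly6a and Ly6e are interferon-induced, and of 16 interferon response genes 1, the GTPase gene Gbp3, was called higher in spleen after saline (66.4 against 2.11 CPM, log2 fold change 4.97, adjusted p = 0.0279, edgeR) and 0 after sepsis, when 3 had an unadjusted p under 0.05. The Gbp3 call was lost with limma-voom (adjusted p = 0.19), in the fit of the 6 saline libraries (0.119) and without replicate 2 or 3 of BM MKs or replicate 3 of splenic MKs after saline (0.0696 to 0.0784). The interferon list had a median log2 fold change between tissues of 1.62 after saline and 2.07 after sepsis, where the medians of all genes were 0.28 and 0.18. Between sepsis and saline its median was -1.326 in BM and -1.695 in spleen, where the spleen was not tested. In each tissue 4 of the 16 genes were positive, and the median of all genes was -0.075.

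Of 37 further genes of the Ly6 family, 33 were found and 16 passed the filter. Higher in spleen were 1 after saline, 1 after sepsis and 3 averaged over treatments, and 0 were lower. The shares of all genes called higher in spleen were 0.725%, 1.18% and 2.68%. The median log2 fold change of the 16 genes was 0.35 after saline and 1.70 after sepsis. Plaur, the urokinase receptor gene, measured 0.515, 0.298 and 0.754 CPM in the BM and 106, 14.4 and 82.7 CPM in the spleen with saline (adjusted p = 0.00692, edgeR), a call lost with limma-voom (0.0569). Ly6k, known from germ cells, was at 0 in all 3 BM libraries after sepsis and measured 57.6, 264 and 0.194 CPM in splenic MKs, which is at least 419.9-fold higher on average against 3 counts per BM library (adjusted p = 0.00257, edgeR). Its level in replicate 3 of the septic spleen was 2 counts, under the limit of 3. The bound was 113.3-fold without replicate 2 of the septic spleen (adjusted p = 0.00117) and 629.5-fold without replicate 3 (adjusted p = 2.11e-06). Lynx1, a modulator of nicotinic receptors, was called averaged over treatments (29.3 against 0.706 CPM, adjusted p = 0.0191, edgeR). It was not called after saline (adjusted p = 0.41, edgeR) or after sepsis (0.0765). The saline libraries overlapped, at 0, 3.38 and 0.323 CPM in the BM and 0.135, 8.58 and 31.6 CPM in the spleen.

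The genes of the enzymes that make and attach the GPI anchor gave no call between tissues. Of 29 genes listed, 28 were found and tested, and 0 were called in either direction after saline, after sepsis or averaged over treatments with edgeR. Of all 20263 genes tested, 253, 361 and 962 were called, so that few calls would be looked for among 28 genes. At an unadjusted p under 0.05 there were 1, 2 and 2 genes of the list, against 2534, 2618 and 3907 of all genes. Their median log2 fold change between tissues was -0.54 after saline and -0.17 after sepsis. Averaged over treatments, 11 of the 28 genes had a positive fitted difference. The largest was that of Pgap1, at 48.0 CPM in spleen and 5.01 CPM in BM (log2 fold change 3.22, SE 0.95, adjusted p = 0.0575, edgeR). The 3 genes of the list with the highest levels were Dpm3, Dpm2 and Pigx. Dpm3, a subunit of the dolichol phosphate mannose synthase, had saline means of 150 CPM in the spleen and 257 CPM in the BM (log2 fold change -0.78, SE 0.54, adjusted p = 0.574, edgeR). Dpm2 of the same enzyme averaged 153 and 133 CPM (adjusted p = 0.949), and Pigx, part of the enzyme that adds the first mannose, 113 and 130 CPM (adjusted p = 0.969).

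Genes were ranked by how closely their log2 CPM followed each member over the 12 libraries, among 8111 or 8112 genes with a mean of at least 10 CPM. These correlations are a description, since the libraries share the split between tissues. Nearest to Ly6a were Gimap4 (Pearson r = 0.989), a lymphocyte GTPase gene, the MHC class II genes H2-Ab1 (0.985) and H2-Aa (0.983), B3gnt5 (0.977) and the lymphoid transcription factor gene Spib (0.977). Nearest to Ly6d were the immunoglobulin light chain gene Iglc3 (0.976), Bcl2a1b (0.975) and H2-Ab1 (0.973). Nearest to Ly6e were the B cell adaptor gene Blnk (0.972), the cytokine receptor gene Il2rg (0.972) and Iglc1 (0.971).

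Ly6c2 had no such close companion. Its nearest genes were Pgs1 (0.900), Sar1a (0.896) and Ifngr2 (0.878), a subunit of the interferon gamma receptor. The members themselves fell into the same pattern, with r = 0.933 between Ly6a and Ly6d, 0.955 between Ly6a and Ly6e, 0.940 between Ly6d and Ly6e, and 0.272 between Ly6a and Ly6c2. For Ly6c1 the nearest genes were Gm45159, Zkscan3 and Xpnpep3 (0.777 to 0.785), and for Ly6g they were Snhg9, Muc16 and Ppp2r2d (0.779 to 0.857). Counts were 0 in 3 of the 12 libraries for Ly6c1 and in 6 for Ly6g.

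The spread between libraries set the precision of these values. The biological coefficient of variation was 51.8% for Ly6e, 60.3% for Ly6c2, 60.6% for Ly6a and 67.7% for Ly6d, where the common value over all genes was 143%. It was 185% for Ly6c1 and 241% for Ly6g.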

How the data were processed

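The authors prepared full-length cDNA (SMART-Seq HT) and sequencing libraries (Nextera XT) and deposited raw counts of reads per gene, not normalized. The submitters' processing notes name STAR 2.7.2b, R 3.6.1, DESeq2 1.26 and GRCm38. The sources used here do not state annotation, strand setting, read length or handling of multimapping reads. Positions are from GENCODE M21.

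Total counts ranged from 7756762 to 27386184. The 12 libraries were fitted together with edgeR 4.0.16 in R 4.3.3 (filterByExpr with a minimum count of 10, TMM factors, 1 mean per group, quasi-likelihood F test, Benjamini-Hochberg adjustment over 20263 genes, threshold 0.05). SE values were derived from F, and log2 CPM used a prior count of 2. Alternatives were RLE factors, library size alone, no filter, 10 counts in 6 libraries, DESeq2 1.42.0, limma-voom (limma 3.58.1) with quality weights, a replicate block, no antigen receptor segment genes, thinning to 7756762 counts, separate fits of 6 libraries, and leaving out each library. The procedure was run on simulated data with planted tissue differences larger than those of Ly6e and Ly6c2. That run does not test differences of their size. Sequences were read and aligned with Python 3.11.15 and Biopython 1.88.

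The genes of the set, the lists and the tests were chosen with earlier results of these data known. Named genes are the 6 members, called genes or the 3 highest of the other family and GPI lists, genes among the first 3 of the marker lists, and the genes nearest each member (5 for Ly6a, 3 for the others). Gbp3, Pgap1 and Cd74 were named after their values were seen. Replicates are independent per the study's methods.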

Additional observations from a re-analysis of the deposited data

How the results depend on the processing

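Between tissues after saline, 4 of the 6 genes were called, and 2 were with library size alone (Ly6c2 and Ly6e lost) 2 with limma-voom (Ly6c2 and Ly6d lost) and 3 in the fit of the 6 libraries alone (Ly6c2 lost). Leaving out each library in turn gave 2 to 4, with 2 without replicate 1 or 2 of BM MKs after saline or replicate 1 of splenic MKs after saline. After sepsis 2 genes were called, 1 in the fit of the 6 libraries alone (Ly6e lost), and 1 to 2 with each library left out, with 1 without replicate 1 or 2 of either septic group. In BM, 0 genes were called after sepsis against saline, and 1, Ly6a, with no expression filter or with DESeq2, while leaving out each library gave 0. The causes were not tested.

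The sign changed for 3 tested results, none of which had passed the test. With each library left out, the log2 fold change of Ly6c2 between tissues after sepsis ran from -0.94 to 0.088, positive without replicate 3 of BM MKs after sepsis. That of Ly6g ran from -6.29 to 5.82 after sepsis and from -0.053 to 6.05 averaged over treatments, negative without replicate 1 of splenic MKs after sepsis, which held most of its counts. In septic against saline spleen, which was not tested, the sign also changed for Ly6d (0.24, and -0.16 to 0.80 with each library left out), Ly6e (-0.02, and -0.22 to 0.28) and Ly6g (0.345, and -8.35 to 2.795). Ly6c2 averaged over treatments was called by DESeq2 alone (1.25, adjusted p = 0.0393).

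The 18 correlations of deviations between libraries of the same replicate number ran from -0.06 to 0.05. Such values cannot show whether BM and splenic libraries came from the same mice, which the sources used here do not state. With the replicate block, Ly6e after saline was lost (log2 fold change 1.83, adjusted p = 0.0781), which left 3 genes called, and no other call changed. Over the alternatives, all genes called ran from 179 to 1312 after saline (253 as reported), from 256 to 1472 after sepsis (361) and from 0 to 206 in BM (0), with the highest count from DESeq2 each time. Averaged over treatments they ran from 810 to 2615 (962). Thinned to equal depth, Ly6c1 and Ly6g between tissues after saline had adjusted p = 0.393 and 0.418 (0.421 and 0.444 as reported). The same alternatives were tried for Plaur, Ly6k, Lynx1 and Gbp3 after the data were seen.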
